A study of Mus musculus with 12 samples.

Results

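The testis-specific serine kinases are protein kinases made almost only in the haploid germ cells of the testis, and the gene set described here holds Tssk1, Tssk2, Tssk3, Tssk4, Tssk5 and Tssk6 with Tsks, which encodes their substrate. The members were chosen with earlier results of these data known and were matched by gene symbol alone. They are 7 of the 20718 genes of the expression table. All 7 passed the filter on low counts that left 16296 genes to test. RNA came from testes of mice whose strain is given as IRC mouse in the labels and ICR in the methods of the study. Males were injected in the testis with lentivirus at 4 weeks of age, were mated at 9 weeks for 4 days, and were kept for another 4 days before the testes were taken. There were 4 groups of 3 libraries, 12 in all. In F0_3NC the virus was the negative control on the LV3 backbone, and in F0_5251KD it was a mixture of 3 short hairpin RNAs on LV3 against lncRNA5251, a long non-coding RNA. In F0_5NC the virus was the empty LV5 vector, and in F0_5251OV it was LV5 with the full length of lncRNA5251. All 4 groups had therefore received a virus, and no untreated testis was analysed here. No sorting of infected cells is named, so each library averages over infected and uninfected cells. The sources used here do not say whether each library is a different mouse. The p-values therefore rest on the spread from library to library, which may be technical. The level of lncRNA5251 was not analysed here, since the table has no row under that name.

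These kinases are related in sequence to the AMP-activated kinase branch of the kinase tree, and their messages appear after meiosis, while the round spermatid becomes a sperm. TSSK1 and TSSK2 sit in the cytoplasm of elongating spermatids, bind TSKS and phosphorylate it, and mice without both kinases are infertile. TSSK4 phosphorylates the tail protein ODF2, and TSSK6 is needed for the packing of DNA in the sperm head. TSACC, a co-chaperone that works with HSP90, binds TSSK6 and allows its activity. All of this is background on the family and not a result of these libraries.

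Tssk1 and Tssk2 lie side by side on chromosome 16 on the plus strand, from 17894223 to 17897922 and from 17898637 to 17900024 (GRCm38, the same assembly as the mm10 of the labels, GENCODE annotation). Each is a gene of 1 exon. Their coding sequences were 77.3% identical in a global alignment (858 of 1110 aligned positions), whereas the other 14 pairs of the 6 kinases were between 46.6% and 56.4% identical. The longest identical stretch of Tssk1 and Tssk2 was 113 bases, from coding base 371 to 483 in each, at chr16:17894723-17894835 and chr16:17899105-17899217. It is shown because reads that fall wholly inside it cannot be assigned to either gene, and because it holds the core of the kinase. Capitals mark the codons of the catalytic-loop motif and of the magnesium-binding motif shared by protein kinases.
Tssk1: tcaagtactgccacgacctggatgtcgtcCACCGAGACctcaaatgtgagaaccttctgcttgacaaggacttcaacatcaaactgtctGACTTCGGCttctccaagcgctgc
Tssk2: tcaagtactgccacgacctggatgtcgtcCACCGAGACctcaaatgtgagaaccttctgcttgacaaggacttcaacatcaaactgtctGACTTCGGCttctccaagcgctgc
No other pair of kinases shared more than 14 bases in a row. The estimated counts of Tssk1 and Tssk2 were whole in all 12 libraries. Of the windows of 49 bases in the coding sequence of Tssk2, 127 also occurred in that of Tssk1, not all of them within the stretch shown. How a read that matched both genes was assigned was not given in the sources used here. A part of their counts is therefore uncertain between them, and its size was not measured.

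The pair also resembled each other upstream. RefSeq promoter windows (GRCm38.p6) were matched for 6 of the 7 members, all except Tssk5. In the 250 bases before the transcript start, a local alignment of Tssk1 with Tssk2 covered 52 and 49 bases, of which 41 were identical, and no other pair of members had so high an alignment score. The block lies at chr16:17894150-17894201 for Tssk1, ending 2 bases before its RefSeq start, which lies upstream of the GENCODE start given above, and at chr16:17898574-17898622 for Tssk2, ending 15 bases before its start. It is shown as the strongest likeness between promoters in the family, and capitals mark the aligned bases that are the same in both.
Tssk1: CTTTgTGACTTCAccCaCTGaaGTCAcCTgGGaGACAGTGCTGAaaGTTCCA
Tssk2: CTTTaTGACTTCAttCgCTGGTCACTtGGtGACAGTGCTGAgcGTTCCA
The letters TGACTTCA stand in both, a match chosen after the sequences were seen, and 1.31% of 32851 RefSeq promoters hold them on either strand. The full cAMP response element, TGACGTCA, which CREB and CREM bind, was present in 1.55% of all promoters and in 0 of the 6. Its shorter form TGACG, which is contained in the full element, was present in 17.8% of all promoters and in 1 of the 6, Tssk6. There it begins 73 bases before the start, at chr8:69902086-69902140 with its surroundings, and the capitals mark it.
Tssk6: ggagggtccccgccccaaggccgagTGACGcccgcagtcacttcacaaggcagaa
TATAAA, the core of the TATA box, was present in 12.4% of all promoters and in 0 of the 6. A match or its lack describes only these letters in this window.

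The remaining members lie on other chromosomes. Tssk3 is at chr4:129489014-129491022 on the minus strand with 2 exons, Tssk4 at chr14:55650184-55652539 on the plus strand with 4, and Tssk5 at chr15:76371952-76374938 on the minus strand with 8. Tsks, at chr7:44943204-44958035 on the plus strand, has 11 exons. Tssk6 is a gene of 1 exon at chr8:69902184-69903518 on the plus strand. Its first 375 bases, 28.1% of its transcript and including 251 coding bases, overlap an exon of Ndufa13 on the opposite strand (chr8:69902184-69902558). The sources name no strand-marking step, so reads of Tssk6 and of Ndufa13, which encodes a subunit of respiratory complex I, cannot be told apart there. By gene span, the first 529 bases of Tssk6 also lie in Yjefn3, and the whole of Tssk1 lies in Dgcr2, both on the opposite strand. The estimated count of Tssk6 was not a whole number in all 12 libraries, and those of the other 6 members were whole.

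The libraries held 15431383 to 16355720 estimated counts each, and 18611 to 18722 genes had at least 1 count. The tissue label was checked against spermatid genes. Prm1, the protamine that packs sperm DNA, had 9805 to 12381 FPKM (fragments scaled by transcript length and by the library total), and the transition protein Tnp1 had 5575 to 7043 FPKM over the 12 libraries. Of the libraries, 2 stood apart on base composition, F0_3NC replicate 2 and F0_5251OV replicate 1. The GC gap of a library is here the median log2 deviation from the 12-library mean of the 1594 genes of highest transcript GC content minus that of the 1600 genes of lowest GC content, members left out. It was -0.68 in F0_3NC replicate 2 and -0.53 in F0_5251OV replicate 1, against 0.01 to 0.22 in the other 10 libraries. F0_5NC replicate 1 stood apart in another way, with the highest TMM scaling factor (1.08, against 0.97 to 1.02 in the others) and with high Sertoli cell and macrophage markers. The spread of Tssk6, Tsks and Tssk3, the correlations of the members and the results that turn on these libraries are given also without them.

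All 7 members were expressed in every library. In the order of mean FPKM, which scales each gene by the transcript length that the authors used, Tssk2 was highest at 373 ± 27.7 (SD over 12 libraries), followed by Tsks at 276 ± 34.3, Tssk1 at 239.7 ± 13.5, Tssk6 at 222 ± 41.4, Tssk3 at 209 ± 8.53, Tssk4 at 101 ± 7.47 and Tssk5 at 10.3 ± 0.885. By mean FPKM, Tssk2 was above 98.7% of the genes tested and Tssk5 above 60.3%. The acrosomal genes Acrv1 and Spaca1, which round spermatids express, had means of 193 and 177 FPKM, close to Tssk3. Neighbours in this order were compared by an exact sign-flip permutation test over the 12 libraries (two-sided, smallest possible p 0.0004883, adjusted over 6 pairs). The order was taken from the same values, so they also set the pairs and their direction. The test therefore shows only how steady each difference was from library to library, at the lengths used. Tssk2 exceeded Tsks in 12 of 12 libraries, Tssk3 exceeded Tssk4 in 12 of 12 and Tssk4 exceeded Tssk5 in 12 of 12 (adjusted exact p = 0.0009766 for each). Tsks exceeded Tssk1 in 11 of 12 (adjusted exact p = 0.004395). Tssk1 and Tssk6 were not separated beyond their spread (Tssk1 higher in 9 of 12, adjusted exact p = 0.06328), nor were Tssk6 and Tssk3 (Tssk6 higher in 10 of 12, adjusted exact p = 0.4985). Without F0_5251KD replicate 1, or without F0_5NC replicate 2, 5 pairs passed instead of 4. The place of Tssk1 depends on the length taken for it. The deposited values imply an effective length of 1319 bases, and the GENCODE transcript has 3700. With CPM divided by GENCODE length, an alternative chosen after seeing the data, Tssk1 moved from position 3 to position 6, below Tssk4 in 12 of 12 libraries (adjusted exact p = 0.0005859), and the order of the other 6 members was the same. Tssk6 was then separated from Tssk3 (higher in 10 of 12, adjusted exact p = 0.001953). The implied length of Tssk3 is 893 bases and its GENCODE length 1280, so the separation of this pair also depends on the length taken. In rank of FPKM within a library, Tssk2 was always in position 1, Tssk4 in position 6 and Tssk5 in position 7, while Tssk6 moved between positions 3 and 5.

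Over the 12 libraries Tssk6 varied most. Its FPKM was 225, 129.5 and 244 in replicates 1 to 3 of F0_3NC, and 274, 224 and 224 in F0_5251KD. In F0_5NC it was 213, 261 and 227, and in F0_5251OV it was 155, 247 and 242. The 2 lowest libraries were those with the low GC gap, and the groups overlapped in every comparison. The highest value was 2.12 times the lowest. The within-group SD of its log2 CPM (counts scaled to the library total) was 0.357, larger than in 99.1% of the 815 genes of like mean level and against a median of 0.181 over all genes tested. Without the 2 libraries of low GC gap its range was 213 to 274 FPKM, or 1.29 times, less than the 1.34 times of Tssk5. Its within-group SD was then 0.157, larger than in 95.8% of genes of like level and against 0.161 for Tssk5, and without F0_5NC replicate 1 as well it was 0.128.

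Tsks followed the same libraries. The 3 libraries of F0_3NC had 265, 196 and 304 FPKM and those of F0_5251KD had 300.5, 283 and 305. Those of F0_5NC had 259, 304 and 276, and those of F0_5251OV had 228, 303 and 285. The lowest values again belonged to F0_3NC replicate 2 and F0_5251OV replicate 1, and the highest was 1.56 times the lowest. Its within-group SD of log2 CPM was 0.232, above 95.8% of genes of like level. Without both low GC gap libraries the range of Tsks was 259 to 305 FPKM, or 1.18 times, and its SD was 0.128, above 85.9% of genes of like level.

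Tssk1 and Tssk2 spread less. In replicates 1 to 3, Tssk1 had 247, 219 and 249.7 FPKM in F0_3NC, then 252, 247 and 235 with knockdown, 221, 246 and 236 in F0_5NC, and 220.0, 244 and 259 with overexpression. Its highest value was 1.18 times its lowest. Tssk2 had 385, 319 and 396 FPKM in F0_3NC, then 374, 379 and 388 with knockdown, 337, 406 and 362 in F0_5NC, and 341, 392 and 402 with overexpression. Its highest value was 1.27 times its lowest. For both genes the 3 lowest libraries were F0_3NC replicate 2, F0_5251OV replicate 1 and F0_5NC replicate 1.

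Tssk3, which encodes a kinase that PDK1 can activate, was the steadiest member over the 12 libraries. It had 213, 198 and 219 FPKM in F0_3NC, then 214, 209 and 204 with knockdown, 190.4, 220.0 and 213 in F0_5NC, and 207, 213 and 214 with overexpression. The groups overlapped throughout, and the highest value was 1.16 times the lowest. Its within-group SD of log2 CPM was 0.110, against 0.127 for Tssk1. Without both low GC gap libraries the SD of Tssk3 was 0.109, above 75.7% of genes of like level, and that of Tssk1 was lower at 0.0975. Without F0_5NC replicate 1 as well they were 0.0384 and 0.0564. Tssk4 had 108, 96.1 and 101 FPKM in F0_3NC, then 99.5, 116 and 93.5 with knockdown, 90.6, 102 and 103 in F0_5NC, and 93.9, 103 and 111 with overexpression. Its highest value, in F0_5251KD replicate 2, was 1.28 times its lowest, in F0_5NC replicate 1. Tssk5, the member of lowest level, had 10, 9.91 and 9.51 FPKM in F0_3NC, then 10.97, 11.5 and 8.77 with knockdown, 10.99, 11.7 and 9.79 in F0_5NC, and 10.4, 9.47 and 10.6 with overexpression. Its groups overlapped as well, and its highest value was 1.34 times its lowest. Its counts, 200 to 268 a library, were the smallest of the family and so carried the largest relative counting error. The plot of FPKM by library shows these values together.

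**Figure D1:**
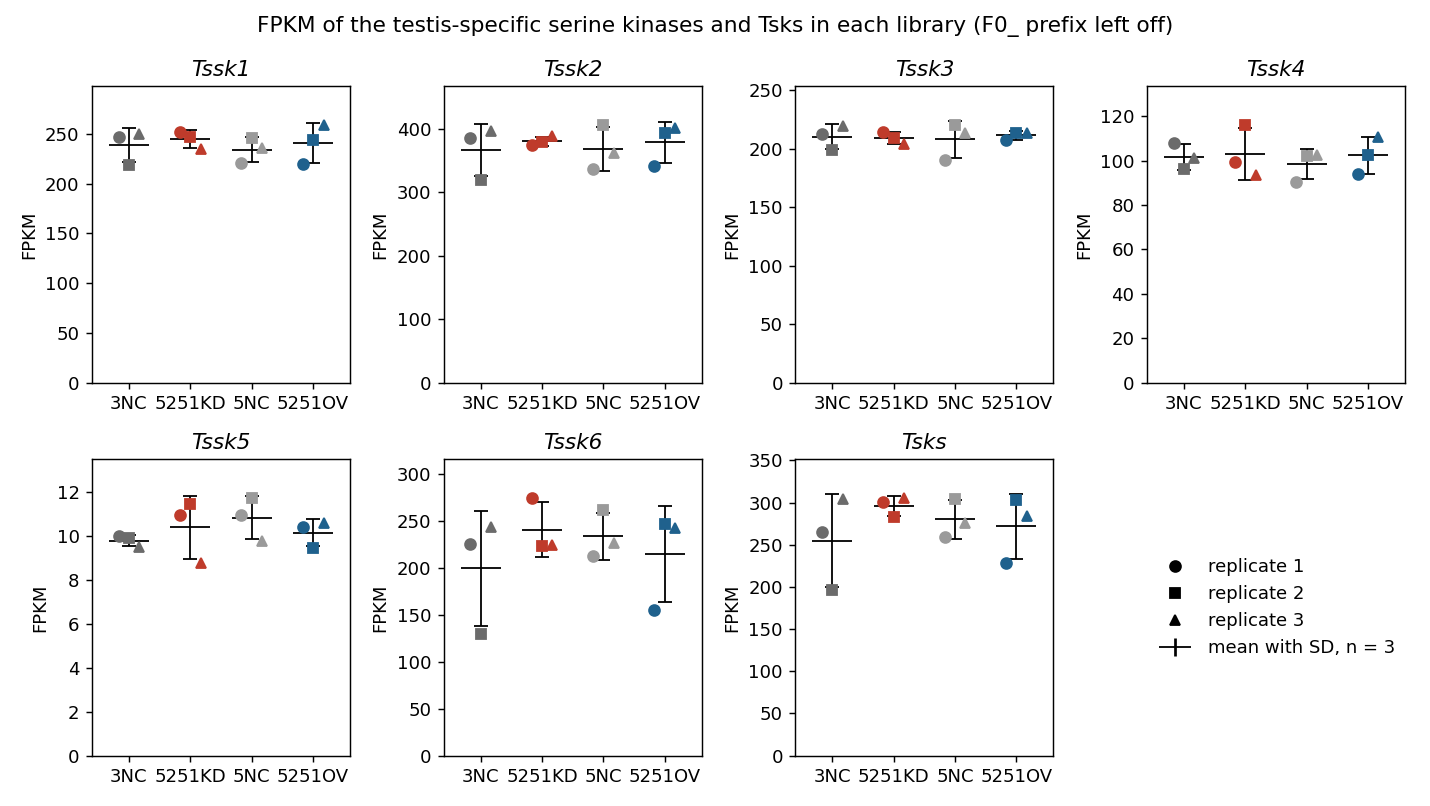
FPKM (y axis, from 0, with its own scale in each panel) of the 7 members in the 12 libraries, by group on the x axis; each symbol is a library, its shape the replicate number, and the bar with whiskers the group mean with the SD (n = 3). The groups overlapped for every member, and the lowest points of Tssk6 and Tsks are F0_3NC replicate 2 (129.5 and 196 FPKM) and F0_5251OV replicate 1 (155 and 228 FPKM).

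Whether knockdown of lncRNA5251 altered the kinases was asked by F0_5251KD against F0_3NC. No member passed the test. Fitted log2 fold changes lay between -0.01 (Tssk3) and 0.26 (Tssk6), with 6 members above 0 and 1 below, where 49.1% of all genes were above 0. Their median was 0.04, against -0.004 over all genes tested. With edgeR's quasi-likelihood test 0 of 7 members had an adjusted p under 0.05, where 0.0245% of all genes tested did, and 0 of 7 had an unadjusted p under 0.05, where 4.74% of all genes did. The CPM of the groups did not overlap in 0 of 7 members and in 11.8% of all genes. DESeq2 also called 0 of 7, where it called 20 of 20394 genes in all.

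The largest fitted differences in this comparison were those of Tssk6 (0.26, SE 0.226, 95% interval -0.23 to 0.74, edgeR adjusted p = 0.897) and Tsks (0.20, SE 0.155, 95% interval -0.13 to 0.54, adjusted p = 0.897). Without F0_3NC replicate 2 they were 0.01 and 0.03. Without F0_3NC replicate 3 they were 0.44 and 0.36. With the GC gap as a covariate, an alternative chosen after seeing the data, they were -0.02 and 0.03. The other 5 members were held more tightly. The 95% interval of the fold was 0.88 to 1.18 for Tssk1, 0.86 to 1.23 for Tssk2, 0.87 to 1.13 for Tssk3, 0.85 to 1.19 for Tssk4 and 0.88 to 1.26 for Tssk5. Beside these values, 5 of 7 Leydig cell markers (median 0.31) and 6 of 6 endothelial markers (median 0.33) were above 0 in the same comparison. So were 6 of 6 peritubular markers (median 0.08), 5 of 6 macrophage markers (median 0.15) and 4 of 8 Sertoli cell markers (median 0.02). Of the spermatid markers, 4 of 11 round (median -0.04) and 9 of 14 elongating ones (median 0.03) were above 0. The same held for 3 of 12 spermatocyte markers (median -0.08) and 3 of 10 spermatogonia markers (median -0.03). EdgeR called 0 genes of these lists, and the part of these cell types in the values of the members was not tested. In bulk tissue a lower level can come from fewer cells of a type or from less RNA per cell, and these cannot be told apart.

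Whether overexpression altered them was asked by F0_5251OV against F0_5NC. Again no member passed the test. The fitted log2 fold changes lay between -0.08 (Tssk6) and 0.10 (Tssk4), with 4 members above 0 and 3 below, where 49.5% of all genes were above 0. Their median was 0.06, against -0.002 over all genes. With edgeR 0 of 7 members were called, where 0% of all genes were, and 0 of 7 had an unadjusted p under 0.05, where 8.77% of all genes did. The CPM of the groups did not overlap in 0 of 7 members and in 13.9% of all genes. DESeq2 called 0 of 7 members as well, where it called 29 of 20394 genes in all. Tssk4 had a log2 fold change of 0.10 (SE 0.111, 95% interval -0.14 to 0.34, edgeR adjusted p = 0.787), and Tssk6 had -0.08 (SE 0.225, 95% interval -0.56 to 0.41, adjusted p = 0.932). The intervals of the fold over all members ran from 0.68 to 1.33.

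The signs in this comparison turned on single libraries. Without F0_5251OV replicate 1, Tssk6 and Tsks were both at 0.12, on the other side of 0. Without F0_5NC replicate 1, Tssk2 and Tssk3 were at -0.02 and -0.04 in place of 0.08 and 0.06, and Tssk1 and Tssk4 were at 0.001 and 0.01 in place of 0.08 and 0.10. In F0_5NC replicate 1, 6 of 7 members were below their 12-library mean, by -0.14 (Tssk6) to -0.26 (Tssk4) on the log2 scale, and Tssk5 was at 0.001. In the same library all 11 round spermatid markers and all 14 elongating spermatid markers were below their mean, with a median of -0.24 for each list. All 8 Sertoli cell markers and all 6 macrophage markers were above it, with a median of 0.45 for each list, as were 6 of 7 Leydig cell markers (median 0.31). The summed FPKM of the Sertoli list was 353 to 542.5 in F0_5NC and 334 to 346 in F0_5251OV, and that of the macrophage list was 35.2 to 57.9 and 34.7 to 39.2. No gene of either list was at 0 in any library. In F0_5251OV vs F0_5NC, 0 of 8 Sertoli cell markers (median -0.23), 0 of 7 Leydig cell markers (median -0.37) and 1 of 6 macrophage markers (median -0.28) were above 0. The same held for 1 of 6 peritubular markers (median -0.42) and 0 of 6 endothelial markers (median -0.31), and edgeR called 0 of these genes. An unadjusted edgeR p under 0.05 was found in 2 of 8 Sertoli, 2 of 7 Leydig and 1 of 6 macrophage markers. It was also found in 4 of 6 peritubular and 1 of 6 endothelial markers, and in 8.77% of all genes. Of the spermatid markers, 9 of 11 round (median 0.10) and 12 of 14 elongating ones (median 0.05) were above 0 in this comparison. So were 10 of 12 spermatocyte markers (median 0.07) and 3 of 10 spermatogonia markers (median -0.07), and edgeR called 0 of them. The part of all these cell types in the values of the members, here and in F0_5NC replicate 1, was not tested.

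**Figure D2:**
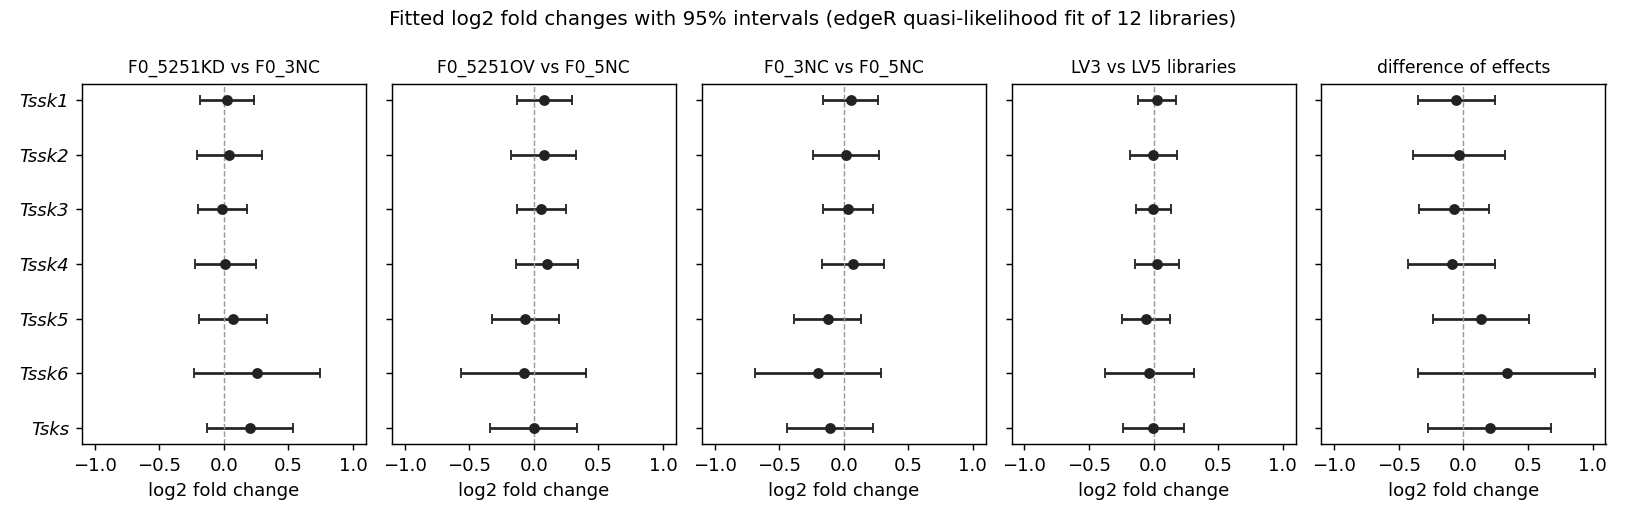
Fitted log2 fold change (points, x axis) of each member (rows) with its 95% interval (bars) in the 5 comparisons, from the edgeR fit of 12 libraries; the dashed line marks 0. Every interval includes 0, and the widest in each panel is that of Tssk6, from -0.23 to 0.74 in F0_5251KD vs F0_3NC.

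Both control groups, which lack the treatment, were set against each other. Their viruses differ in backbone, so a backbone difference and the background between groups cannot be told apart in this comparison. The backbones were also compared, each with its control and its treated group. In F0_3NC against F0_5NC the log2 fold changes ran from -0.20 (Tssk6, SE 0.226, edgeR adjusted p = 0.715) to 0.07 (Tssk4), and 0 of 7 members were called, where 0.331% of all genes were. The fitted change was above 0 in 4 of 7 members and in 50.1% of all genes. None had an unadjusted p under 0.05, where 11.9% of all genes did, and none had groups without overlap, where 17% of all genes did. The value of Tssk6 between the controls, -0.20, was close in size to its 0.26 in the knockdown, and both comparisons share the F0_3NC libraries. Without F0_3NC replicate 2 the value for Tssk6 was 0.05 and that for Tsks 0.07, in place of -0.20 and -0.10. For the 6 LV3 libraries (F0_3NC and F0_5251KD) against the 6 LV5 libraries, the log2 fold changes of the members lay between -0.06 (Tssk5) and 0.03 (Tssk1), above 0 in 2 of 7 and in 49.7% of all genes. Here 0 of 7 were called, where 0.706% of all genes were, 0 of 7 had an unadjusted p under 0.05, where 6.35% of all genes did, and 0 of 7 did not overlap, where 0.749% of all genes did not. This comparison had the narrowest intervals, from 0.77 to 1.24 as a fold over all members.

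Whether knockdown and overexpression moved the members differently was tested as the difference of both effects. No member was called, where 0% of all genes were, and 3 of 7 were above 0, as were 50.4% of all genes. An unadjusted p under 0.05 was found in 11.3% of all genes and in 0 of 7 members. Tssk6 had the largest difference at 0.33 (SE 0.319, 95% interval -0.35 to 1.02, edgeR adjusted p = 0.669), followed by Tsks at 0.20 (SE 0.22, adjusted p = 0.707). Without F0_3NC replicate 2 and F0_5251OV replicate 1, an alternative chosen after seeing the data, these values were -0.08 and -0.07. For Tssk1 to Tssk4 the difference was between -0.09 and -0.04, and for Tssk5 it was 0.14.

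**Figure D3:**
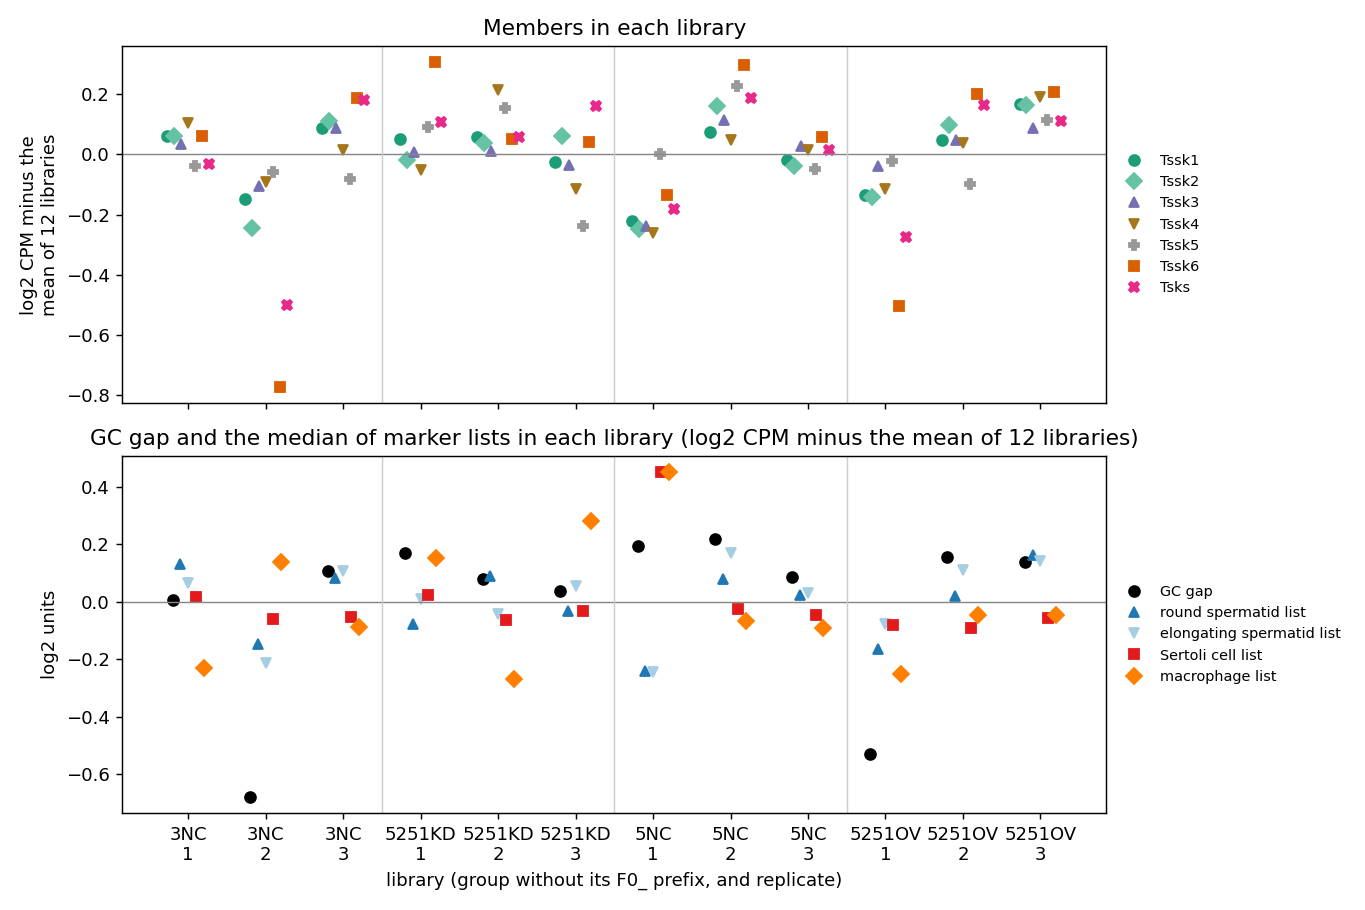
Upper panel, log2 CPM of each member minus its mean over the 12 libraries (y axis) in each library (x axis, grouped); lower panel, the GC gap of the library and the median of 4 marker lists on the same scale. All 7 members are below 0 in F0_3NC replicate 2 and F0_5251OV replicate 1, where the GC gap is -0.68 and -0.53, and 6 of 7 are below 0 in F0_5NC replicate 1, where the Sertoli and macrophage medians are 0.45.

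The libraries with a low GC gap held the lowest levels of the GC-rich members. Tssk6 has a transcript GC content of 64.8%, above 99.5% of genes, and Tsks one of 62.0%, above 98.0%, while the other 5 members lie between 52.4% and 54.8%. In F0_3NC replicate 2 the log2 deviation from the 12-library mean was -0.77 for Tssk6 and -0.50 for Tsks, against -0.06 to -0.24 for the other members. In F0_5251OV replicate 1 it was -0.50 for Tssk6 and -0.27 for Tsks, against -0.02 to -0.14. Over the other 10 libraries the correlation of log2 CPM with the GC gap was 0.35 for Tssk6 and 0.06 for Tsks, so the relation rests on the 2 libraries that stand apart. With those left out, F0_3NC and F0_5251OV had each lost a library, and the errors were smaller. The libraries left out were the lowest for Tssk6 and Tsks, so smaller errors for these genes followed from the choice. The SE of Tssk6 in F0_5251KD vs F0_3NC was 0.114 in place of 0.226, and that of Tsks 0.0952 in place of 0.155. Without them the log2 fold changes of the 7 members lay between -0.05 and 0.08 in that comparison and between -0.07 and 0.16 in F0_5251OV vs F0_5NC, with no adjusted p under 0.05. Ndufa13, which overlaps Tssk6, also had its lowest FPKM in these libraries, 94.96 and 111.5, against 126 to 137 in the other 10. In F0_3NC replicate 2, 12 of 14 elongating and 7 of 11 round spermatid markers were below their mean, and in F0_5251OV replicate 1 10 of 14 and 7 of 11 were. In the fit with the GC gap as a covariate, chosen after seeing the data, the gap term was tested with edgeR. Its adjusted p was 0.000456 for Tssk6, 0.00307 for Tsks, 0.0319 for Tssk2 and 0.0425 for Tssk1. For Tssk3, Tssk4 and Tssk5 it was 0.245, 0.273 and 0.823. The term had an adjusted p under 0.05 in 3586 of the 16296 genes tested. Whether base composition or the share of spermatids caused these values was not tested.

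**Figure D4:**
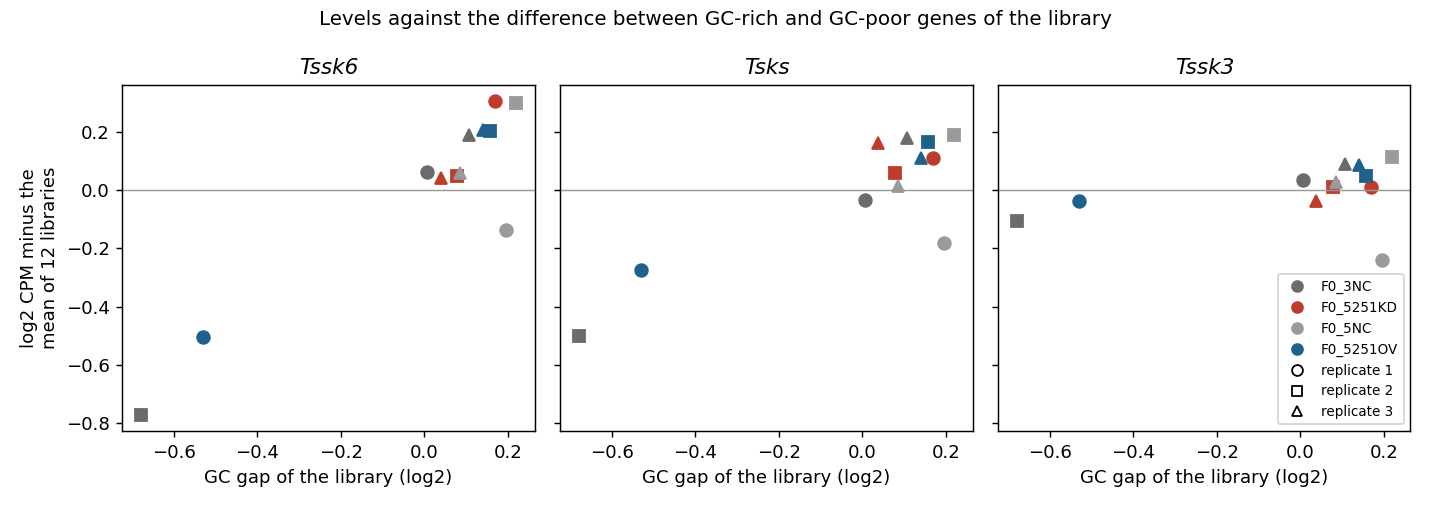
Log2 CPM minus the 12-library mean (y axis) of Tssk6, Tsks and, for contrast, Tssk3 against the GC gap of the library (x axis, log2); colours give the group and shapes the replicate. F0_3NC replicate 2 and F0_5251OV replicate 1 lie far to the left, at -0.77 and -0.50 for Tssk6, while the 10 other libraries form a cluster with gaps of 0.01 to 0.22.

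The proteins around the kinases were taken as a list of 10 genes. It holds the TSSK6 co-chaperone Tsacc and the chaperones Hsp90aa1 and Hsp90ab1, the phosphatase Ppp1cc, the substrates Odf2, Spag16, Creb1 and H2afx, the activating kinase Pdpk1 and the spermatid transcription factor Crem. All 10 were measured, and 0 were called in any of the 5 comparisons. In F0_5251KD vs F0_3NC 4 were above 0 and 6 below, with a median of -0.01, from -0.19 (Hsp90aa1, SE 0.126) to 0.14 (H2afx, SE 0.118). In F0_5251OV vs F0_5NC 6 were above 0 and 4 below, with a median of 0.02, from -0.13 (Hsp90ab1, SE 0.0726) to 0.16 (Hsp90aa1, SE 0.126). Only Pdpk1 had an unadjusted p under 0.05 in any comparison, at 0.20 in F0_3NC vs F0_5NC (SE 0.0853, edgeR unadjusted p = 0.0388, adjusted p = 0.404). By mean FPKM, Odf2 stood at 1838, Hsp90aa1 at 866, Ppp1cc at 616 and Tsacc at 379, near Tssk2. Hsp90ab1 stood at 139, Crem at 84.1, Pdpk1 at 83.1, Spag16 at 68.4, H2afx at 26.1 and Creb1 at 3.53. In RNA, and at the lengths that the authors used, the mean FPKM of Tsacc was thus above that of its partner Tssk6. No other length was tried for Tsacc.

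Other kinases gave a like picture. Of 14 other germ cell kinases and of 17 kinases of the AMPK branch with their activator Stk11, edgeR called 0 in F0_5251KD vs F0_3NC and 0 in F0_5251OV vs F0_5NC. DESeq2 called Nuak2 in the latter at -0.80 (adjusted p = 0.0289). The medians of the lists were -0.01 and 0.01 in the knockdown comparison and 0.07 and -0.01 in the overexpression comparison. The ends of the germ cell kinase list were Stk31 at -0.23 and Tesk1 at 0.19 with knockdown, and Tesk1 at -0.11 and Aurkc at 0.40 with overexpression (SE 0.125, edgeR adjusted p = 0.536). The ends of the AMPK list were Hunk at -0.16 and Sik1 at 0.34 with knockdown, and Nuak2 at -0.79 (SE 0.145, adjusted p = 0.269) and Mark1 at 0.15 with overexpression. Nuak2, an AMPK-related kinase, was the 1 kinase of these lists that edgeR called in any comparison, at 0.48 (SE 0.1, edgeR adjusted p = 0.0485) in LV3 against LV5 libraries. Between the controls, in F0_3NC vs F0_5NC, Nuak2 was at -0.004 (SE 0.139, edgeR adjusted p = 0.992). Its mean FPKM was 2.59 in F0_3NC, 2.94 in F0_5251KD, 2.63 in F0_5NC and 1.47 in F0_5251OV, so the low group was F0_5251OV alone. Of the other lists, which cover 10 regulators of spermatid transcription and 10 lists of cell type markers, edgeR called 0 genes in F0_5251KD vs F0_3NC, in F0_5251OV vs F0_5NC, in F0_3NC vs F0_5NC or in the difference of effects. DESeq2 called Myh11, a smooth muscle myosin of the peritubular list, at -0.48 in F0_5251OV vs F0_5NC (adjusted p = 0.0264). In LV3 against LV5 libraries edgeR called the smooth muscle gene Tagln at 0.71 (adjusted p = 0.00239) and the epididymal gene Crisp1 at -6.65 (adjusted p = 0.0131), and DESeq2 called these and the steroid synthesis genes Star and Cyp11a1 of the Leydig cell list. Among the spermatid regulators 1 of 10 was above 0 with knockdown (median -0.05, from Mybl1 at -0.25 to Rfx2 at 0.20). With overexpression 10 of 10 were (median 0.11, from Sox30 at 0.05 to Fhl5 at 0.17). Of all genes, 49.1% and 49.5% were above 0. Between the controls, in F0_3NC vs F0_5NC, 9 of 10 regulators were above 0 (median 0.09), where 50.1% of all genes were. Each treatment was compared with 1 of these control groups. In F0_5NC replicate 1, 9 of the 10 were below their mean over all libraries. Whether lncRNA5251 altered this list as a set was not tested.

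Within the family the members did not all vary together. Over the 12 libraries the Pearson correlation of log2 CPM was 0.93 for Tssk1 with Tssk2, 0.90 for Tssk1 with Tssk3 and 0.89 for Tssk2 with Tssk3. Over the 10 libraries without the low GC gap these were 0.91, 0.93 and 0.92. Tssk6 with Tsks had 0.95 over 12 libraries and 0.79 over 10. With F0_5NC replicate 1 left out as well, so over 9 libraries, the 3 correlations among Tssk1, Tssk2 and Tssk3 were 0.70, 0.70 and 0.71, and that of Tssk6 with Tsks was 0.57. Over the 12 libraries Tssk5 was the member least like the others, with 0.14 to 0.45. This did not hold over the 9 libraries. There Tssk5 had 0.56 with Tssk1, 0.24 with Tssk2, 0.53 with Tssk3, 0.59 with Tssk4, 0.51 with Tssk6 and -0.03 with Tsks. Tsks then had -0.37 with Tssk4 and 0.14 with Tssk1, and Tssk4 had -0.12 with Tssk6. All of these values share the libraries and their scaling, and they are given as a description.

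The genes whose pattern over the 12 libraries was most like a member were sought among the 11706 genes that averaged 5 CPM or more. Trim17 (r = 0.99) and Osbp2 (r = 0.98) were nearest to Tssk2, and Spag4 (r = 0.97) and Tescl (r = 0.96) to Tssk1. Lrrc28 (r = 0.96) and Eif3b (r = 0.95) were nearest to Tssk3, and Coro2a (r = 0.95) and Sec24b (r = 0.95) to Tssk4. Tssk5 had no near match, the highest being 2410004B18Rik and Rap1gap2 (r = 0.80 and 0.79). Nearest to Tssk6 were Znrf4 (r = 0.99) and Fam229a (r = 0.99), which are GC-rich like it, with 68.4% and 65.8%, and which had 0.95 and 0.92 over the 10 libraries without the low GC gap. For Tsks they were 2610318N02Rik and Spatc1 (r = 0.97 for each, 0.91 and 0.90 over 10 libraries). The mean of the standardised values of the 7 members was most like Ropn1l (r = 0.98), followed by Bsdc1, 4933411K16Rik, Mmel1 and Eef1d (r = 0.96 each). These correlations are over 12 libraries that share depth, scaling and base composition, and the genes were picked for being the highest of many. Over the 9 libraries that leave out all 3 that stand apart, they ran from 0.74 (Spatc1 with Tsks) to 0.95 (Coro2a with Tssk4 and Trim17 with Tssk2).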

How the data were processed

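Testis RNA of 12 libraries was analysed. Per the methods of the study, messenger RNA was enriched with oligo(dT) beads, copied with random hexamers, sequenced on an Illumina instrument and aligned with SOAPaligner, and per the labels the build was mm10. The deposited table holds estimated counts per gene, of which 12.0% were not whole (tolerance 1e-06), and the tool that made them was not given in the sources used here. In the same table, the deposited FPKM values are those counts divided by an effective transcript length and the library total by the authors. The methods name RPKM. A further 18 per-sample columns carry names of no sample of the series and were left out.

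Estimated counts were rounded, scaled by TMM and tested in R 4.3.3 with edgeR 4.0.16 (filterByExpr, quasi-likelihood F test, two-sided, Benjamini-Hochberg over 16296 genes, threshold 0.05, 8 residual degrees of freedom). This differs from the pooled-count test of the study, which ignores the spread between libraries and was run as an alternative (adjusted p at most 0.001, absolute log2 ratio at least 1). DESeq2 1.42.0 and limma 3.58.1 were further alternatives. Standard errors were derived from the fold change and F. The log2 CPM used a prior count of 2. Total counts differed by little between libraries, and intervals cover the spread between libraries.

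The members and the 14 gene lists (136 entries, 134 in the table) were chosen with earlier results of these data known. The genes named are the members, their partners, Prm1, Tnp1, Acrv1 and Spaca1, the 2 genes nearest to each member and the 5 nearest to their mean by Pearson correlation, list genes called, and the ends of lists. Ndufa13 was named after its values were seen. Transcript GC content came from GENCODE and 97.8% of genes tested had a value. In simulated counts for F0_5251KD vs F0_3NC, 16172 genes were fitted, and edgeR found 65 of the 100 true changes of 2-fold, 92 of the 100 of 4-fold and 9 false ones. For F0_5251OV vs F0_5NC, with 16153 genes, it found 80, 93 and 7.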

Additional observations from a re-analysis of the deposited data

How the results depend on the processing

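No member was called in any of the 5 comparisons under any of the alternatives tried, at the threshold of each. Of 819 log2 fold changes of members over 24 alternatives, 720 kept their direction and 99 changed sign, and the largest of these 99 was 0.18 in size. In the pooled-count test, 3 of 7 members in F0_5251KD vs F0_3NC, 1 in F0_5251OV vs F0_5NC and 2 in F0_3NC vs F0_5NC had an adjusted p of at most 0.001, and 0 met its log2 ratio, the largest being 0.28. That test ignores the spread between libraries. The share of all genes at its adjusted p alone was not computed, so these counts are not read as a result about the members. Over all genes the calls in F0_5251KD vs F0_3NC were 4, and 0 to 143 over the alternatives. In F0_5251OV vs F0_5NC they were 0, and 0 to 191, in F0_3NC vs F0_5NC 54, and 26 to 307, in LV3 against LV5 libraries 115, and 66 to 221, and in the difference of effects 0, and 0 to 34. Of the list genes, DESeq2 called 2, Nuak2 and Myh11, in F0_5251OV vs F0_5NC, where edgeR called 0, and 5 in LV3 against LV5 libraries, where edgeR called 3. The cause was not tested. The replicate numbers were not found to pair the libraries, since same-numbered libraries had correlations of -0.17 to 0.07. With the replicate block 0 members were called, and Tssk2 was at 0.0039 in LV3 against LV5 libraries, in place of -0.0006.

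With F0_3NC replicate 2 and F0_5251OV replicate 1 left out (chosen after seeing the data), the values that changed sign were, in F0_5251KD vs F0_3NC, -0.033 for Tssk1, -0.049 for Tssk2 and -0.026 for Tssk4. In F0_5251OV vs F0_5NC they were 0.11 for Tssk6 and 0.11 for Tsks, in F0_3NC vs F0_5NC 0.028 for Tssk6 and 0.049 for Tsks, in LV3 against LV5 libraries 0.0063 for Tssk2, 0.0046 for Tssk3 and 0.016 for Tsks, and in the difference of effects -0.083 for Tssk6 and -0.066 for Tsks. With the GC gap as a covariate (also chosen after seeing the data) they were, in F0_5251KD vs F0_3NC, -0.063 for Tssk1, -0.067 for Tssk2, -0.055 for Tssk4 and -0.017 for Tssk6. In F0_5251OV vs F0_5NC they were 0.17 for Tssk6 and 0.16 for Tsks, in F0_3NC vs F0_5NC 0.15 for Tssk6 and 0.12 for Tsks, in LV3 against LV5 libraries 0.036 for Tssk2, 0.014 for Tssk3, 0.059 for Tssk6 and 0.054 for Tsks, and in the difference of effects -0.18 for Tssk6 and -0.13 for Tsks. With limma on log2(FPKM + 1) Tssk2 was at -0.0086 in F0_3NC vs F0_5NC, at 0.00095 in LV3 against LV5 libraries and at 0.019 in the difference of effects, and Tssk3 at 0.0012 in LV3 against LV5 libraries. With a pseudocount of 0.1 these were -0.0086, 0.00096, 0.019 and 0.0012. In the pooled-count test Tssk3 was at 0.0059 in F0_5251KD vs F0_3NC, and Tssk2 at -0.021 and Tssk3 at -0.0047 in F0_3NC vs F0_5NC.

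With each library left out in turn, the values that changed sign ranged, in F0_5251KD vs F0_3NC, from -0.045 to 0.069 for Tssk1, -0.061 to 0.11 for Tssk2, -0.066 to 0.030 for Tssk3, -0.097 to 0.074 for Tssk4 and -0.0074 to 0.18 for Tssk5. In F0_5251OV vs F0_5NC they ranged from -0.020 to 0.18 for Tssk2, -0.040 to 0.13 for Tssk3, -0.13 to 0.024 for Tssk5, -0.19 to 0.12 for Tssk6 and -0.093 to 0.12 for Tsks. In F0_3NC vs F0_5NC they ranged from -0.030 to 0.13 for Tssk1, -0.083 to 0.12 for Tssk2, -0.069 to 0.11 for Tssk3, -0.025 to 0.13 for Tssk4, -0.38 to 0.045 for Tssk6 and -0.26 to 0.066 for Tsks. In LV3 against LV5 libraries they ranged from -0.014 to 0.062 for Tssk1, -0.047 to 0.052 for Tssk2, -0.050 to 0.034 for Tssk3, -0.027 to 0.065 for Tssk4, -0.13 to 0.088 for Tssk6 and -0.082 to 0.080 for Tsks. In the difference of effects they ranged from -0.13 to 0.035 for Tssk1, -0.15 to 0.072 for Tssk2, -0.14 to 0.038 for Tssk3 and -0.21 to 0.012 for Tssk4.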
